A study of Mus musculus with 2 samples.

Results

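The Cyp4 genes encode cytochrome P450 enzymes of the endoplasmic reticulum that hydroxylate fatty acids at the omega carbon, the end away from the carboxyl group. The alcohol formed is oxidized further to a dicarboxylic acid, which peroxisomes shorten by beta-oxidation. Cyp4a enzymes act mainly on medium and long chain fatty acids, and in rodent liver their genes are classic targets of PPARα, a nuclear receptor activated by fatty acids. Cyp4f enzymes also act on leukotrienes and other eicosanoids, and Cyp4v enzymes on polyunsaturated fatty acids among others. The members were chosen by name, as 10 genes of the Cyp4a, Cyp4f and Cyp4v families, and 5 of the 10 were listed among the 8551 genes of the deposited table, Cyp4a14, Cyp4a32, Cyp4f14, Cyp4f15 and Cyp4v3. Cyp4a10, Cyp4a12a, Cyp4a12b, Cyp4a31 and Cyp4f13 were not analysed here for their levels. The authors left out genes with a mean under 1 TPM, so a listed member is one that passed this filter.

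Liver poly(A) RNA of male mice aged 9 weeks was sequenced as digital gene expression tags, with 1 library from wild type mice (normal) and 1 library from db/db mice (diabetic), both labelled as C57BL/6 in background. db/db mice carry a mutation of the leptin receptor gene in every tissue, and become obese and diabetic. All livers were collected some 3 h after lights came on. It is not stated whether a library holds RNA of 1 mouse or of several. With 1 library per group, no difference has a replicate check, and every interval covers counting error only. Levels are given in TPM, a gene's tags scaled to the total of clean tags (10278531 for normal, 13508232 for diabetic liver), from whose equal steps whole reads were worked out. The summed level of the 4 listed hepatocyte markers was 8951 TPM in normal and 9001 TPM in diabetic liver, mostly Alb, the albumin gene (6801 and 6912 TPM), and 1 of the 4 was called, Cps1, a urea cycle gene, at 130.3 and 316.7 TPM. Those of the markers of other cells were 36.1 and 19.0 TPM for macrophages (4 listed, 2 called lower), 41.8 and 49.9 TPM for endothelial cells (4 listed, 1 called higher), 36.9 and 57.1 TPM for stellate cells (3 listed, 1 called higher) and 4.28 and 4.22 TPM for cholangiocytes (2 listed), and 0 of 4 kidney markers were listed. The part of such shifts in the results below was not tested, and in whole liver fewer cells of a type and less RNA per cell cannot be told apart.

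In standard tag profiling a transcript is counted by the short tag next to a DpnII site (GATC), as a rule the last site before the poly(A) tail. The authors made cDNA with random hexamers, so a tag need not come from the last site. Whether reads from other sites were counted was not tested, and the list below holds last sites only. To show which Cyp4 genes tags of last sites can separate, the last tag of each member was read. It was taken from the GENCODE transcript with the longest coding sequence (release M21, GRCm38). The tags that the authors sequenced were not analysed here, and their length is not given in the sources used here, so 20 bases were taken. The 5 listed members are printed first, with the DpnII site in capitals.
Cyp4a14: GATCcacctgtgtctcaaga
Cyp4a32: GATCtacctacatctcaaga
Cyp4f14: GATCccagaatgaacagaac
Cyp4f15: GATCcctgacttcattggcc
Cyp4v3: GATCctctggagcaacttcg
Cyp4a10 and Cyp4a31: GATCcctaaaagctccaaga
Cyp4a12a and Cyp4a12b: GATCatttctccatctttcc
Cyp4f13: GATCctgcgcgcagagggcg

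The last tags of Cyp4a14, Cyp4f14, Cyp4f15 and Cyp4v3 were found next to a DpnII site in no other gene. The Cyp4a14 tag lies in the coding part of its last exon (exon 12 of 12, chr4:115487154-115487173, minus strand). Those of Cyp4f14 (chr17:32905438-32905457, minus strand), Cyp4f15 (chr17:32703112-32703131, plus strand) and Cyp4v3 (chr8:45305149-45305168, minus strand) lie in the 3' UTR, also in the last exon. All positions are on GRCm38, while the submitters' processing notes name mm9, and the deposited values carry no positions.

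The last tag of each of the other 5 members was shared. Cyp4a10 and Cyp4a31 had 1 tag in common, as did Cyp4a12a and Cyp4a12b, and the Cyp4f13 tag was also present at a DpnII site of Cyp4f14, Cyp4f15, Cyp4f17 and Cyp4f40. Thus 4 of 5 listed members and 0 of 5 members not analysed had a last tag of their own. Over all protein-coding genes matched by symbol, the last tag was shared for 4.43% of the 7219 listed genes and for 17.0% of the 14658 other genes. Whether sharing decided which genes were listed was not tested.

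Cyp4a32 is the exception among the listed members. Its last tag (chr4:115621572-115621591, plus strand) is in the coding part of exon 12 of 12, and the same 20 bases stand at a DpnII site in Cyp4a10 and Cyp4a31. The annotated transcript of Cyp4a32 ends with the stop codon, so sites in a 3' UTR could not be searched. Its next site upstream, 87 bases from the end of that transcript, gives GATCctaccagggttcccga, which was found in no other gene. The value of Cyp4a32 is uncertain for this reason. If only last sites were counted, reads of Cyp4a10 and Cyp4a31 would fall on the tag they share, printed above. They could be counted with Cyp4a32 if other sites were counted and shared tags were kept. If shared tags were left out, the value of Cyp4a32 would rest on other sites of that gene. The paper sets reads of unique genes apart from reads of multiple genes, and reports unique genes as those quantified. It does not state outright how shared tags entered the values. Which of these cases holds for Cyp4a32 was not tested.

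Identity of the coding sequences was computed beside the tags. Cyp4a12a and Cyp4a12b were identical at 98.5% of aligned bases, Cyp4a10 and Cyp4a32 at 97.2%, Cyp4a10 and Cyp4a31 at 96.6%, and Cyp4a31 and Cyp4a32 at 96.0%. Cyp4a14 had 75.7% to 76.4% identity to the 5 other Cyp4a members. Cyp4f14 and Cyp4f15 were identical at 82.1% of aligned bases, and Cyp4f13 at 78.3% with Cyp4f14 and 76.6% with Cyp4f15. A shared tag thus did not follow from identity alone, since Cyp4f13 shared its last tag at about the identity at which Cyp4a14 had its own. In the alignment of coding sequences, the other 5 Cyp4a members each differed from the Cyp4a14 tag at 4 of 20 bases, which are the capitals here.
Cyp4a14: gatccacctgtgtctcaaga
Cyp4a10, Cyp4a31 and Cyp4a32: gatcTacctACAtctcaaga
Cyp4a12a and Cyp4a12b: gatccacTtgCAtctcaaAa

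Cyp4a14 was much higher in the diabetic liver, and 2 other members were lower. A gene is called here when it differs at least 1.5-fold with a false discovery rate (FDR) under 0.001 in an exact binomial test on its reads, adjusted over all listed genes. That test compares the 2 libraries, not the conditions. Of the 5 listed members, 1 was called higher and 2 were called lower, while 2 were not called. Over all listed genes, 22.5% were called higher and 8.07% lower. The median log2 ratio, diabetic over normal, was 0.36 over the 5 members and 0.25 over all listed genes, but it hides a spread from -0.86 to 5.72 among the members.

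Cyp4a14 (Entrez 13119), an omega-hydroxylase of fatty acids, was counted with 145 reads in normal and 10033 reads in diabetic liver. The level thus rose 52.6-fold, from 14.1 to 742.7 TPM. The log2 ratio was 5.72 (95% interval, 5.48 to 5.96). By level Cyp4a14 went from rank 2730 of the listed genes in the normal library to rank 87 in the diabetic library. By ratio it ranked 8 of the 3673 genes averaging 10 TPM or more.

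Cyp4a32 (Entrez 100040843), a paralog in the same gene cluster, was counted with 148 reads in normal and 107 reads in diabetic liver. It fell 1.82-fold, from 14.4 to 7.92 TPM (log2 ratio -0.86, 95% interval -1.23 to -0.49, FDR 9.8e-06 by the exact test). In the normal library the counting intervals of Cyp4a14, 11.9 to 16.6 TPM, and Cyp4a32, 12.2 to 16.9 TPM, overlapped. In the diabetic library Cyp4a14 was 93.8 times as abundant as Cyp4a32.

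Cyp4f14 (Entrez 64385), a mouse leukotriene hydroxylase, was counted with 1129 reads in normal and 970 reads in diabetic liver. It fell from 109.8 TPM to 71.8 TPM, 1.53-fold, close to the threshold. The log2 ratio was -0.61 (95% interval, -0.74 to -0.49), and the interval reaches past the log2 value of 1.5-fold. By the exact test its FDR was 2.7e-21. Cyp4f15 (Entrez 106648), its neighbour in the Cyp4f cluster, had 514 and 992 reads, or 50.01 TPM in normal and 73.4 TPM in diabetic liver. The fold change of 1.47 lay just under 1.5, although its FDR by the exact test was 4.7e-12 (log2 ratio 0.55, 95% interval 0.40 to 0.71). The 2 Cyp4f genes thus lay on opposite sides of equality, and the difference of their log2 ratios, Cyp4f14 minus Cyp4f15, was -1.17 (95% interval, -1.36 to -0.97).

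Cyp4v3 (Entrez 102294), the mouse counterpart of human CYP4V2, a fatty acid hydroxylase, was counted with 1663 reads in normal and 2806 reads in diabetic liver. This gave 161.8 and 207.7 TPM, a ratio of 1.28 (log2 ratio 0.36, 95% interval 0.27 to 0.45) that was not called. Cyp4v3 held nearly the same place among the listed genes in both libraries, rank 359 and rank 356.

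**Figure D1:**
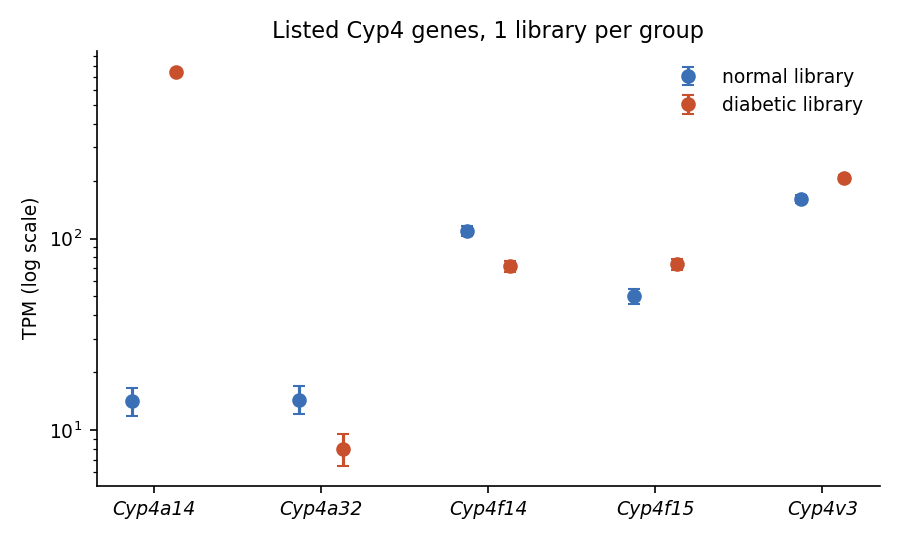
TPM (log axis) of the 5 listed Cyp4 genes in the normal (blue) and diabetic (red) library, with 95% Poisson intervals of the reads as bars, which cover counting error only. Cyp4a14 goes from 14.1 to 742.7 TPM, while the 4 other genes stay within 2-fold of their normal level.

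The order of the members by level changed between the libraries. Levels are set side by side here as if each transcript gave 1 tag, which was not tested. The ratio of a gene between the libraries does not rest on this, but the order, the sum and the shares do. In the normal library Cyp4v3 was highest, followed by Cyp4f14 and Cyp4f15, and Cyp4a32 and Cyp4a14 were lowest with overlapping intervals. In the diabetic library Cyp4a14 was highest, at 3.58 times the level of Cyp4v3. Cyp4f15 (68.9 to 78.2 TPM) and Cyp4f14 (67.4 to 76.5 TPM) followed with overlapping intervals, and Cyp4a32 was lowest. Divided by the 8 to 13 DpnII sites of each transcript, Cyp4f14 (13.7 TPM per site) came before Cyp4v3 (12.4) in the normal library, and per kilobase of transcript it did so as well (49.5 against 42.5 TPM). On both of these scales Cyp4a14 was again the highest member in the diabetic library, at 74.3 TPM per site and 297.6 TPM per kilobase.

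Summed over the 5 listed members, the level was 3.15-fold higher in diabetic liver, at 1103.6 TPM against 350.1 TPM. Without Cyp4a14 the sum was 336.0 and 360.9 TPM, a log2 ratio of 0.10 (95% interval, 0.04 to 0.17). Cyp4a14 made up 4.03% of the members' reads in normal liver (95% Clopper-Pearson interval, 3.41% to 4.72%) and 67.3% in diabetic liver (66.5% to 68.1%). The share of Cyp4f14 went from 31.4% to 6.51% and that of Cyp4v3 from 46.2% to 18.8%, since shares are relative to the sum.

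**Figure D2:**
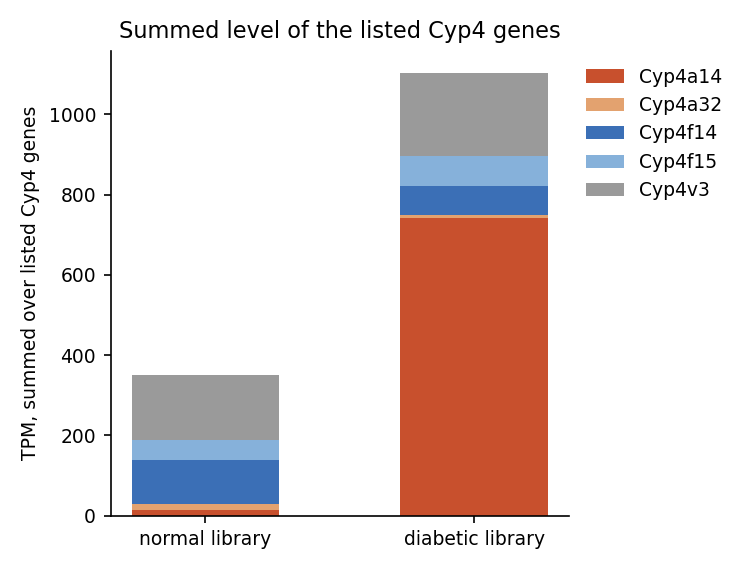
TPM summed over the 5 listed Cyp4 genes (linear axis from 0), by gene, in the normal and diabetic library. The sum is 350.1 and 1103.6 TPM, and nearly all of the difference is the Cyp4a14 segment.

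Each pair of members was compared by the difference of their log2 ratios, which does not depend on the scaling between the libraries. For 9 of the 10 pairs the 95% interval of counting error did not include 0. Cyp4a14 exceeded the 4 other members by 5.16 (over Cyp4f15) to 6.58 (over Cyp4a32). The 1 pair whose interval included 0 was Cyp4a32 and Cyp4f14, the 2 lower members, at -0.25 (-0.63 to 0.13). Cyp4f15 minus Cyp4v3 was 0.19, with an interval of 0.02 to 0.37.

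**Figure D3:**
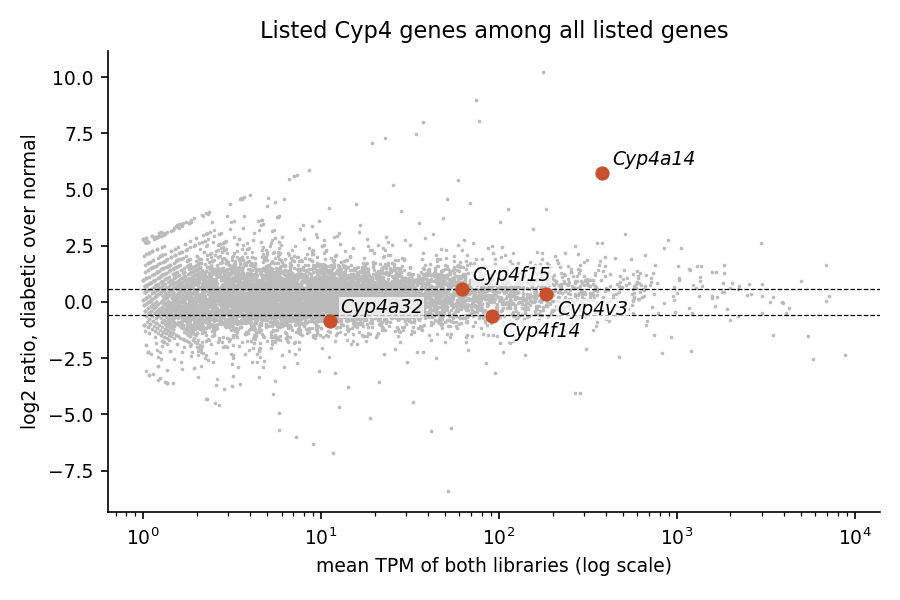
Log2 ratio, diabetic over normal, against the mean TPM of both libraries (log axis) for the 8551 listed genes (grey) and the 5 listed Cyp4 genes (red), with dashed lines at 1.5-fold in each direction. Genes at 3 reads or fewer in a library are drawn at the ratio computed against 3 reads. Cyp4a14 stands above most of the cloud at 5.72, rank 9 of all listed genes by ratio, and the other members lie within it.

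The total of clean tags sets the deposited scale, and 4 other scalings lowered each log2 ratio by 0.25 to 0.27. Under these scalings Cyp4a14 was between 5.45 and 5.47, and it was called higher under each. Cyp4a32 was between -1.13 and -1.11 and Cyp4f14 between -0.88 and -0.86, and both were called lower under each. Cyp4f15 was then between 0.29 and 0.30 and Cyp4v3 between 0.09 and 0.11, and neither was called under any of the 4.

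**Figure D4:**
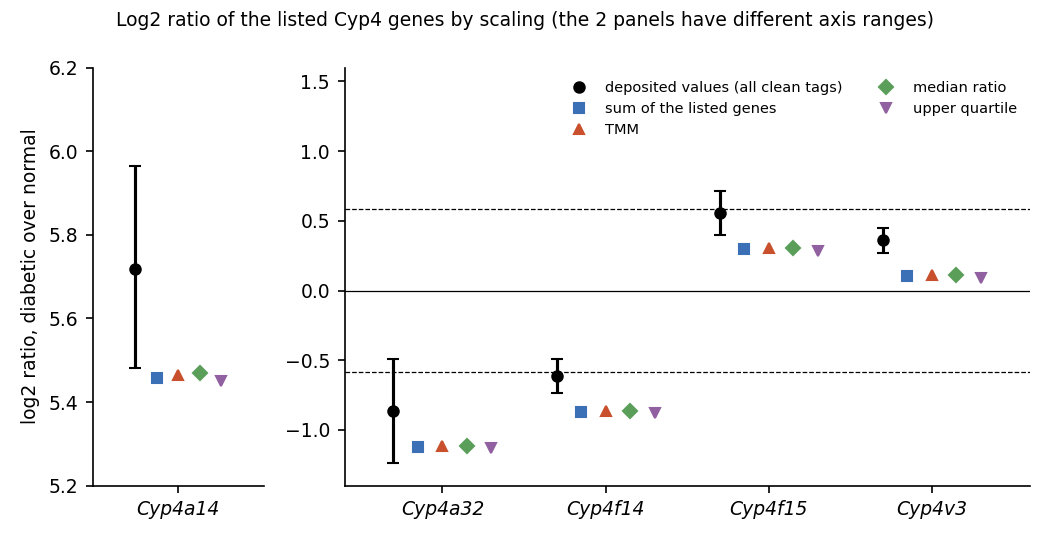
Log2 ratio, diabetic over normal, of the 5 listed Cyp4 genes with the deposited scaling (black, bars are 95% intervals of counting error) and with 4 other scalings (colours), in 2 panels with different axis ranges and dashed lines at 1.5-fold in the right panel. The other scalings lower every ratio by about the same amount, and Cyp4v3 comes nearest to 0, at 0.09 under upper-quartile scaling.

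Only 1 other Cyp4 gene was listed, Cyp4b1 (Entrez 13120), an arylamine and fatty acid hydroxylase, with 73 reads (7.10 TPM) in normal and 77 reads (5.70 TPM) in diabetic liver. It was not called (log2 ratio -0.32, 95% interval -0.80 to 0.16, FDR 0.286 by the exact test). Among genes averaging 10 TPM or more, the 3 with the log2 ratio nearest to that of Cyp4a14 were Cyp17a1, a steroid hydroxylase gene, at 5.44, Slc16a5, a monocarboxylate transporter gene, at 5.18 and Mfsd2a, a lipid transporter gene, at 4.58. This likeness rests on 1 ratio of 2 libraries.

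The nearest listed genes in genome order were read beside the Cyp4 genes, up to 3 on each side of a cluster on chromosomes 4, 8 and 17, and 2 inside the Cyp4f cluster. Those 2 were Zfp871, called higher at a log2 ratio of 0.90 (95% interval, 0.58 to 1.23), and Zfp870. The latter had 17 and 9 reads, a log2 ratio of -1.30, and was not called. Of the 20 genes read, 3 were called higher and 2 lower, near the 22.5% and 8.07% of all listed genes. Some were far off, such as Skint4 and Cdkn2c, 15 and 26 genes from the chromosome 4 cluster, and Cdkn2c, a cell cycle inhibitor gene, is 1 of the 3 called higher (log2 ratio 2.19). On chromosome 4, Pdzk1ip1, directly beside the cluster that holds Cyp4a14 and Cyp4a32, had 85 and 15 reads and a log2 ratio of -2.90 (95% interval, -3.80 to -2.09). On the other side of that cluster, the nearest listed gene had a log2 ratio of 0.06, and Mknk1, a kinase gene a few genes further, was at 1.00 (95% interval, 0.55 to 1.46). Next to Cyp4v3 on chromosome 8, Klkb1, the gene of plasma prekallikrein, was at -0.12 (95% interval, -0.82 to 0.59) and F11, the gene of coagulation factor XI, at -1.17 (95% interval, -1.34 to -1.01).

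Genes that work with the Cyp4 enzymes or share their regulator were taken from lists. These lists were chosen with earlier results of these data known, so their counts are no independent support. Of 80 listed genes on 8 pathway lists, each counted once, 41 were called higher and 3 lower, with a median log2 ratio of 0.74. Over all listed genes 22.5% were called higher and 8.07% lower, and the counts of each list below stand beside these shares. Under the 4 other scalings 27 were called higher and 4 lower, where TMM scaling called 14.7% of all listed genes higher and 13.2% lower. List counts under the other scalings stand beside the latter shares.

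Electrons reach microsomal P450 enzymes from Por, the NADPH cytochrome P450 reductase, and from cytochrome b5. Por (204 and 1675 reads) rose 6.25-fold, from 19.9 to 124 TPM, with a 95% interval of the log2 ratio from 2.43 to 2.86. It was 1 of 5 listed genes of this group, and the others were not called with the deposited scaling. Cyb5b, the outer mitochondrial cytochrome b5 gene, had a log2 ratio of -0.41 with the deposited scaling, and was called lower under each of the 4 other scalings (-0.67 to -0.66). Cyb5, the microsomal cytochrome b5 gene, was among the abundant transcripts at 4020 and 3862 TPM, a log2 ratio of -0.06.

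The omega-alcohol is oxidized by alcohol and aldehyde dehydrogenases, and 2 of 8 listed genes were called higher and 0 lower, a share near the 22.5% of all listed genes. Aldh3a2, the fatty aldehyde dehydrogenase, rose from 177.8 to 556.0 TPM (log2 ratio 1.64, 95% interval 1.57 to 1.72). Aldh1a1, a retinaldehyde dehydrogenase, rose from 233.2 to 1550 TPM (log2 ratio 2.73). Adh1, the most abundant alcohol dehydrogenase gene here, was at 1524 and 2081 TPM, a log2 ratio of 0.45 that lay under 1.5-fold.

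Dicarboxylic acids are activated to CoA esters and taken up by peroxisomes, and 4 of 11 listed genes of these steps were called higher and 0 lower (2 higher under each of the 4 other scalings). Abcd3, a peroxisomal transporter that carries dicarboxylic acids, rose from 124.5 to 268.0 TPM (log2 ratio 1.11). Pex11a, a peroxisome division gene, rose from 10 to 66 reads (log2 ratio 2.33, 95% interval 1.36 to 3.45). At 0.97 TPM in normal liver, it passed the authors' filter on the mean only through the diabetic library (4.89 TPM). Slc27a2, an acyl-CoA synthetase and fatty acid transporter, was at 532.7 and 773.5 TPM, a ratio of 1.45 that was not called.

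Of the peroxisomal beta-oxidation genes, 6 of 9 were called higher and 0 lower, with a median log2 ratio of 0.74, and under each of the 4 other scalings 4 of 9 were called higher. Hsd17b4, the D-bifunctional protein, was at 236.0 and 395.5 TPM (log2 ratio 0.74), and its call was lost under the 4 other scalings (0.48 to 0.49). Ehhadh, the L-bifunctional enzyme, which acts on dicarboxylic acids, was 3.99-fold higher, and Ech1, an enoyl-CoA isomerase, 3.07-fold. Ehhadh and Ech1 were called higher under all 4.

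Of 7 listed genes that release or trim acyl-CoA in peroxisomes, 4 were called higher and 1 lower. Acot4, a thioesterase for succinyl-CoA, went from 11 to 129 reads (log2 ratio 3.16), and Acot3, a thioesterase for long chain acyl-CoA, from 12 to 283 reads (log2 ratio 4.16, 95% interval 3.34 to 5.14). Acot8, which also hydrolyses dicarboxylyl-CoA, rose 1.82-fold. The lower gene was Nudt7, a peroxisomal CoA diphosphatase, which fell from 496.4 to 117.0 TPM (log2 ratio -2.09, 95% interval -2.17 to -2.00).

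Ppara itself rose from 36.6 to 82.1 TPM (376 and 1109 reads), a log2 ratio of 1.17 (95% interval, 1.00 to 1.34). It is 1 of 5 listed genes on the list of PPARα and its partners. Of these 2 were called higher and 0 lower, with a median log2 ratio of -0.04. Med1 was also called higher, at 2.13, while Rxrb (-0.18), Nr1h3 (-0.04) and Ncoa1 (-0.39) were not called. Of 25 listed genes known as other PPARα targets, 16 were called higher and 1 lower, with a median log2 ratio of 0.80. Over all listed genes 22.5% were called higher and 8.07% lower. Under each of the 4 other scalings 11 of the 25 were called higher and 1 lower. The largest ratios were those of Cidec, a lipid droplet gene with 2 and 176 reads (95% interval of the log2 ratio, 4.19 to 9.12), and Acot2, a mitochondrial thioesterase gene with 5 and 142 reads (log2 ratio 4.42, 95% interval 3.18 to 6.08). Among the abundant targets, Acadm and Acadl, dehydrogenases of mitochondrial beta-oxidation, had log2 ratios of 1.45 and 1.41, and Fabp2, a fatty acid binding protein gene, 0.09. The lower gene was Fads1, a desaturase of polyunsaturated fatty acids, at -0.87 (95% interval, -1.02 to -0.73).

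Eicosanoids are substrates of the Cyp4f enzymes, and of 10 listed genes that make or break down eicosanoids 6 were called higher and 1 lower. Under each of the 4 other scalings 1 of the 10 was called higher and 1 lower, where TMM scaling called 14.7% and 13.2% of all listed genes. The gene called higher throughout was Ephx1, an epoxide hydrolase, at 1.37 on the log2 scale (95% interval, 1.17 to 1.57). Hpgd, which inactivates prostaglandins, was at 49.4 and 86.2 TPM, and its log2 ratio of 0.80 was called with the deposited scaling but not with the 4 others (0.53 to 0.55). Cyp2c44, an arachidonic acid epoxygenase, fell from 123.5 to 75.3 TPM, with a 95% interval of the log2 ratio from -0.83 to -0.59. Ephx2, the soluble epoxide hydrolase, was at 248.3 and 204.8 TPM and was not called.

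**Figure D5:**
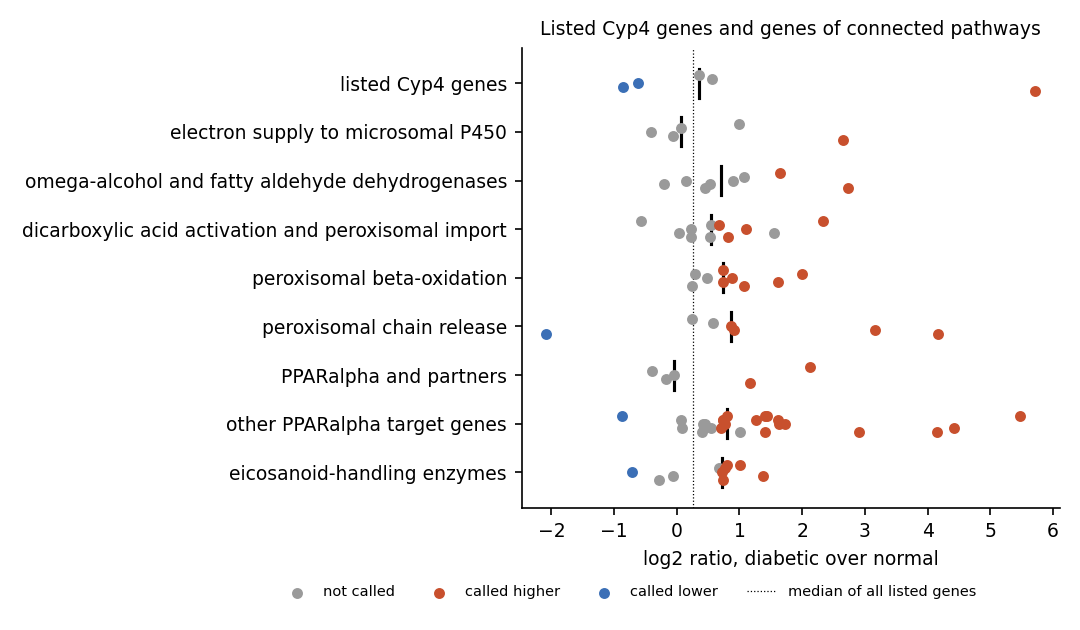
Log2 ratio, diabetic over normal, of the listed Cyp4 genes and of the listed genes of 8 connected pathway lists, coloured by call, with the median of each list as a black bar and the median of all listed genes, 0.25, as a dotted line. Cidec is drawn at the ratio computed against 3 reads. Cyp4a14 is drawn furthest to the right, at 5.72, and the interval of Cidec, 4.19 to 9.12, reaches past it.

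Sex is known to set the level of some Cyp4a genes in mouse liver, and lists of sex-biased liver genes were read beside the members. The lists were chosen with earlier results of these data known. They hold genes that the paper names among its largest fold changes, such as Cyp2b9, Hsd3b5 and Slco1a1. Their counts are thus no independent support. Both libraries are from males. Of 10 listed male-biased genes 9 were called lower and 0 higher, with log2 ratios from -8.43 to 0.74. Of 17 listed female-biased genes 15 were called higher and 1 lower. Some of them, such as Sult1e1 with 0 and 1015 reads, passed the authors' filter only through the diabetic library. Over all listed genes 22.5% were called higher and 8.07% lower. The female-biased list holds Cyp17a1 and Acot3, named above. Cyp17a1 and Acot3 rose with Cyp4a14 between the same 2 libraries, while most of the male-biased genes fell. The part of sex-biased genes in the Cyp4a14 ratio was not tested.

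The direct repeat AGGTCANAGGTCA, the form of site that PPARα binds with its partner RXR, was searched on both strands of RefSeq promoter windows (GRCm38.p6, 250 bases before to 50 after the start). Windows were matched for 5 of the 10 members, Cyp4a32, Cyp4f13, Cyp4f14, Cyp4f15 and Cyp4v3. Their best matches had 3 mismatches in Cyp4a32 and Cyp4v3, 4 in Cyp4f14 and Cyp4f15 and 5 in Cyp4f13. Of 27025 genes with a window, 27.3% had a match with 3 mismatches or fewer and 4.40% with 2 or fewer. The absence of a closer match concerns only these letters in these windows.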

How the data were processed

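Digital gene expression tags of normal and db/db mouse liver were compared, with 1 library per group assigned from the labels. The authors isolated poly(A) RNA, made cDNA with random hexamers, digested it with DpnII, sequenced tags on an Illumina 1G sequencer, removed adaptors, compared clean tags with RefSeq and deposited values they call TPM, which are RPM values (tags scaled to all clean tags) rounded to 2 decimals, with 0.01 in place of 0. Genes with a mean under 1 TPM were left out by the authors. The submitters' processing notes name mm9, and the aligner and the mismatches allowed are not given in the sources used here. The paper sets reads of unique genes apart from reads of multiple genes, and reports unique genes as those quantified. It does not state outright that tags shared by paralogs were left out of the deposited values, and this was not tested. The number of value columns not used was 0.

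The values rise in steps of 0.0973 and 0.0740 TPM, each worth 1 read. Within 0.005 TPM, 8513 of 8513 values of the normal and 8536 of 8537 values of the diabetic library above the placeholder were whole reads. The listed genes held 3809707 and 5993204 reads, with a median of 71 and 111. Reads were compared by the exact binomial test (two-sided), and its p-values were adjusted after Benjamini and Hochberg across the whole table to give the FDR. Intervals of ratios are 95% Clopper-Pearson intervals. They cover counting error only, since each group has 1 library, and they treat reads as independent. Tags that carry no molecular identifier can be copies of 1 molecule, and the intervals and FDR would then be too narrow. For counts of 3 or less in a library, the ratio was taken against a floor of 3 reads. On simulated reads of 8551 genes with 200 changed 3-fold, 177 of the 200 were called, with 1 false call. The simulated reads held counting error only and no variation between mice, so false calls between livers are not measured by them.

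The members and lists were chosen with earlier results of these data known, and no list was tested. List genes were matched by Entrez identifier through RefSeq names (GRCm38.p6), in which 8317 of the 8551 listed genes had an entry. Named genes were the members, other listed Cyp4 genes, all genes of lists with at most 10 listed genes, in longer lists the 6 of highest mean TPM and the 2 of largest ratio, the neighbours and the 3 genes nearest to Cyp4a14 in ratio, of which a selection is printed. Fads1 falls outside this rule and was named after its value was seen. Alternatives were 4 scalings (sum of the listed genes, TMM, median ratio, upper quartile), pseudocounts of 0.1 and 1 TPM, a fold threshold of 2, a mean of at least 5 TPM, the fold alone, and, added after the data were seen, a negative binomial test with an assumed variation between samples of 20% or 40%. That test took the place of a planned edgeR test, which was not run. Calls per list under each scaling, and levels per DpnII site and per kilobase, were added after the data were seen as well. Identity between proteins, planned at first, was computed between coding sequences by global alignment (match 2, mismatch -1, gap opening -5, gap extension -1). Tools were Biopython 1.88, matplotlib 3.10.9, pandas 2.3.3, scipy 1.17.1 and numpy 2.4.6 under Python 3.11.15.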

Additional observations from a re-analysis of the deposited data

How the results depend on the processing

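No paired analysis was possible because each group has 1 library, and no library could be left out. Only the 4 scalings could change the sign of a log2 ratio, and under each of them the 5 members kept it. Cyp4a14 stayed called higher in each alternative that was run. With a fold threshold of 2, Cyp4a32 at -0.86 and Cyp4f14 at -0.61 on the log2 scale were no longer called, so 0 members were called lower, and 25 genes of the pathway lists were called higher and 1 lower. With an assumed variation of 20%, these 2 members were again not called (0 lower), and 10 pathway genes were called higher and 1 lower. With an assumed variation of 40%, 0 members were called lower, and 1 pathway gene was called higher and 0 lower. Under each of the 4 scalings 27 pathway genes were called higher in place of 41. Over all listed genes 1928 were called higher and 690 lower, and 1260 and 1127 under TMM scaling, while a fold threshold of 2 gave 1219 and 384, the fold alone 2941 and 1310, and an assumed variation of 20% and 40% gave 241 and 77, and 20 and 8. Of 99 alternative values, 80 kept their side of the threshold or stayed within 1.5 times the main count. The depth limits Cyp4a32 most, at 148 and 107 reads, and no value here holds the variation between mice.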
